A study of Mus musculus with 8 samples.

Results

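The 10 miRNA arms described here come from the miR-23a, miR-27a and miR-24-2 cluster and from its paralog, the miR-23b, miR-27b and miR-24-1 cluster. They were chosen by their names on the array, which carried probes for 1881 mouse miRNAs in all. The a cluster contributed 4 arms (mmu-miR-23a-3p, mmu-miR-27a-3p, mmu-miR-27a-5p and mmu-miR-24-2-5p) and the b cluster 5 (mmu-miR-23b-3p, mmu-miR-23b-5p, mmu-miR-27b-3p, mmu-miR-27b-5p and mmu-miR-24-1-5p); the prefix for mouse is left out from here on. The remaining arm, mmu-miR-24-3p, has the same sequence in both clusters, so its signal pools the 2 loci.

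Total RNA of whole kidney in 8 samples was measured on one-colour Agilent miRNA arrays, 1 array per sample. Akita kidneys and control kidneys below stand for these samples. The 4 Akita samples came from male C57BL/6-Ins2Akita/J mice, a strain that becomes diabetic because a dominant Ins2 mutation yields misfolded proinsulin and pancreatic beta cells fail. The 4 control samples, titled Mock, came from male C57BL/6J mice, and no agent is named for either group. The labelled age was 36 in both groups, with no unit, and no label says that each sample was a separate mouse, so p-values cover the spread between these samples, which may be technical.

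A miRNA gene is transcribed as a longer RNA that is cut to a hairpin and then to a short duplex. One strand, the guide, is usually kept by an Argonaute protein, and the other, the passenger, is mostly lost. The guide finds its target mRNAs chiefly through its seed, the bases next to its 5′ end. In both of these clusters the guides are the 3p arms, and the 3 hairpins of a cluster are cut from one primary transcript. The clusters are known for their expression in endothelial cells and their part in angiogenesis, miR-23 is known for repressing glutaminase in human cells, miR-27 for restraining adipogenesis through PPARγ, and miR-24 for targeting cell cycle genes.

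The mature sequences are shown because the seeds tell which arms can share targets. RefSeq (GRCm38.p6) held 9 of the 10 arms; the capitals mark the seed, bases 2 to 8 from the 5′ end.
miR-23a-3p: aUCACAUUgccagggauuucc
miR-27a-3p: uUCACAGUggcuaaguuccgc
miR-27b-3p: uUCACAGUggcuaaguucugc
miR-24-3p: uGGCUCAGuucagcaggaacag
miR-24-2-5p: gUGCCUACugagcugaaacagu
miR-24-1-5p: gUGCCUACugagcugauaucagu
miR-27a-5p: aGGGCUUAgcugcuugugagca
miR-27b-5p: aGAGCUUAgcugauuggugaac
miR-23b-5p: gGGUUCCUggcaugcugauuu

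MiR-27a-3p and miR-27b-3p shared a seed and differed by a single substitution, C19U, counted from the 5′ end of miR-27a-3p. MiR-24-2-5p and miR-24-1-5p also shared a seed with each other. The seeds of miR-23a-3p, miR-27a-3p and miR-24-3p all differed, so the seeds of the guides of one cluster pair with different target sites. The 5p arms of miR-27a and miR-27b had different seeds.

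The paralogous guides are told apart on the array by 1 base near the 5′ end of the probe, which pairs with the 3′ end of the miRNA. The longer matching probes are given with that base in capitals.
miR-23a-3p probe: ggAaatccctggcaatg
miR-23b-3p probe: ggTaatccctggcaatg
miR-27a-3p probe: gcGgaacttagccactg
miR-27b-3p probe: gcAgaacttagccactg

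The substitutions were A3T between the miR-23 probes and G3A between the miR-27 probes, counted from the 5′ end of the a probe. No file gives how far a probe also binds the paralog, and this was not tested. In RefSeq's table for GRCm38.p6 the a cluster spans chr8:84208518-84208921 on the plus strand, 404 bases from Mir23a through Mir27a to Mir24-2. It overlaps no gene other than miRNAs there, and the nearest protein-coding gene is Zswim4, 2021 bases from Mir24-2. The b cluster spans chr13:63300484-63301275 on the plus strand, 792 bases from Mir23b through Mir27b to Mir24-1, inside the span of the protein-coding gene Aopep. Whether it lies in an intron is not in the table used here. Mir3074-2 and Mir3074-1 lie on the minus strand across Mir24-2 and Mir24-1.

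Of the 10 arms, 6 were well above background on all 8 arrays: the 5 guides and the passenger miR-24-2-5p. The other 4 were above background on none. All 6 therefore passed the filter in both groups, and they were tested among 285 miRNAs. Values are log2 signals, scaled on each array to the 75th percentile of those probes that were above background on every array, and log2 fold changes give Akita minus control. The arrays lay on 1 slide, with Akita in row 2 and control in row 1, so row and group cannot be told apart. In whole kidney, fewer cells of a type and less RNA per cell cannot be told apart either.

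The guides of both clusters stood at nearly the same level in Akita and control kidneys, with every fitted change under 0.10 on the log2 scale in this scaling; without scaling and with the spike-ins, described further on, the fitted values of all 5 were below 0 and 3 were called lower in Akita. None of the 6 measured arms was called by limma at an adjusted p under 0.05, where 14.7% of all tested miRNAs were (42, and 20 to 40 when 1 array was left out), and 1, miR-24-2-5p, had an unadjusted p under 0.05, as did 34.0% of all. The members' median log2 fold change was 0.047, against 0.063 over all tested miRNAs. A missed threshold does not show equal levels, so the 95% interval is given for each arm.

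MiR-23a-3p had log2 signals of 11.88, 11.77, 11.83 and 11.89 in the Akita kidneys and of 11.83, 11.89, 11.82 and 11.86 in the control kidneys. The groups lay across one another, and 1 Akita value stood above the highest control value. Its log2 fold change was -0.0055 ± 0.060 (SE, n = 4 each; limma adjusted p = 0.97), with a 95% interval from -0.14 to 0.13, or 0.907-fold to 1.09-fold.

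MiR-23b-3p, its paralog, had 12.03, 11.76, 11.93 and 12.07 in the Akita kidneys and 11.87, 12.02, 11.95 and 11.95 in the control kidneys. Akita replicates 1 and 4 were above every control and Akita replicate 2 was below every control. The Akita mean was 11.95 ± 0.14 and the control mean 11.95 ± 0.062 (SD over 4 samples), and the 95% interval of the change ran from -0.19 to 0.18 (limma adjusted p = 0.997).

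MiR-27a-3p had 10.77, 10.66, 10.72 and 10.81 in the Akita kidneys and 10.62, 10.71, 10.65 and 10.63 in the control kidneys. Of the 4 Akita values 3 were above the highest control value. Its log2 fold change was 0.090 ± 0.063 (SE; limma adjusted p = 0.33), with a 95% interval from -0.052 to 0.23.

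MiR-27b-3p had 10.75, 10.51, 10.66 and 10.73 in the Akita kidneys and 10.50, 10.67, 10.62 and 10.59 in the control kidneys. The groups overlapped, with Akita replicate 2 next to the lowest control. Its log2 fold change was 0.069 ± 0.075 (SE; limma adjusted p = 0.55), with a 95% interval from -0.10 to 0.24.

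MiR-24-3p, which both clusters make, had 11.73, 11.59, 11.68 and 11.77 in the Akita kidneys and 11.65, 11.73, 11.62 and 11.66 in the control kidneys. Here too the groups lay across one another. Its log2 fold change was 0.025 ± 0.066 (SE; limma adjusted p = 0.82), with a 95% interval from -0.12 to 0.17, or 0.917-fold to 1.13-fold.

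MiR-24-2-5p, the passenger arm that only the a cluster encodes, had 5.82, 5.70, 5.79 and 5.92 in the Akita kidneys and 5.58, 5.68, 5.56 and 5.65 in the control kidneys. Every Akita value was above every control value, the one measured arm of which this held; over all tested miRNAs 22.8% had groups that did not overlap, and in 13.7% Akita was the higher. Its log2 fold change was 0.19 ± 0.069 (SE), a 1.14-fold difference with a 95% interval from 1.02-fold to 1.27-fold (-0.082 when arrays were not scaled, -0.052 on the spike-in scale), and it missed the threshold (limma adjusted p = 0.093). It was dim, with scaled signals between 52.0 and 60.4 in Akita and between 47.0 and 51.2 in control, and the spots of its probes had coefficients of variation of 10.2% to 27.7% on an array, against 0.982% to 7.30% for the guides. Its 2 probes gave log2 differences of 0.25 and 0.14, the widest gap between the probes of a measured arm.

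**Figure D1:**
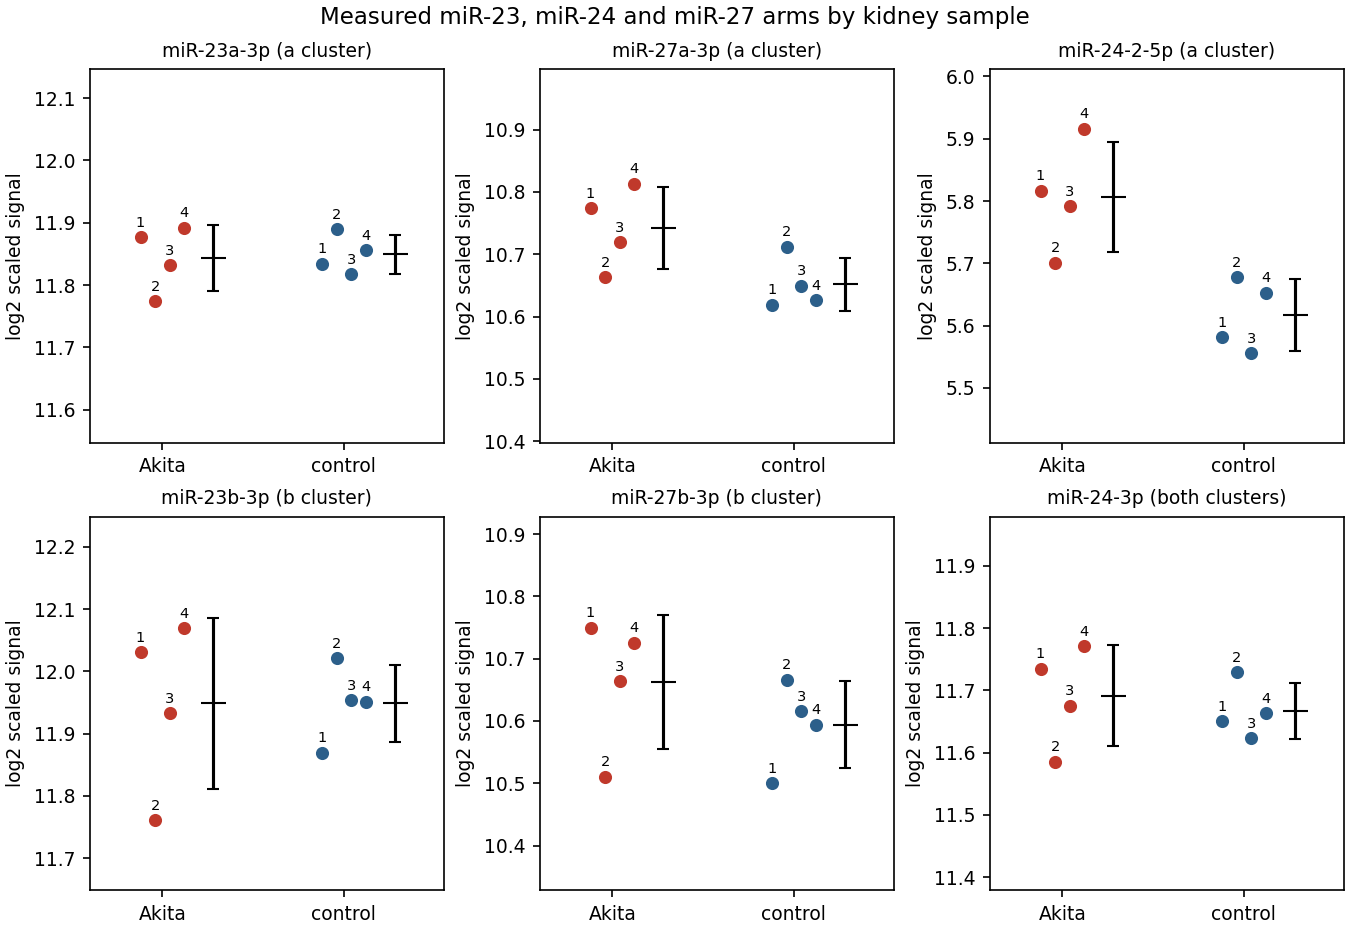
Log2 scaled signal (vertical axis) of the 6 measured arms in the 4 Akita (left) and 4 control (right) samples; numbers are replicates, bars the mean and SD, and each panel spans the same range of log2 units. MiR-24-2-5p is the panel in which the groups do not overlap, while the Akita and control values of the 5 guides overlap.

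The 4 arms below background on all arrays were passengers. MiR-24-1-5p, the passenger of the b cluster's miR-24 hairpin, had scaled signals of 21.2, 18.0, 20.3 and 21.9 in the Akita kidneys and of 17.9, 19.0, 18.6 and 16.7 in the control kidneys. All of these lay under the floor of 23.65, so no fold is given. The scaled signals of miR-23b-5p, miR-27a-5p and miR-27b-5p were below 0 on every array after background subtraction, the highest being -0.88 in Akita and -1.83 in control. Of the passengers of the miR-24 hairpins, the a cluster's was thus measured on all 8 arrays and the b cluster's on none.

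The arms moved together from array to array. Akita replicate 2 was the lowest Akita array for all 6 arms, and control replicate 2 was the highest control array for all 6. Akita replicate 4 was the highest Akita array for 5 arms, with Akita replicate 1 highest for miR-27b-3p. The same order was common in the table: Akita replicate 2 was lowest for 49.8% of the tested miRNAs, Akita replicate 4 highest for 56.8% and control replicate 2 highest for 42.8%.

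**Figure D2:**
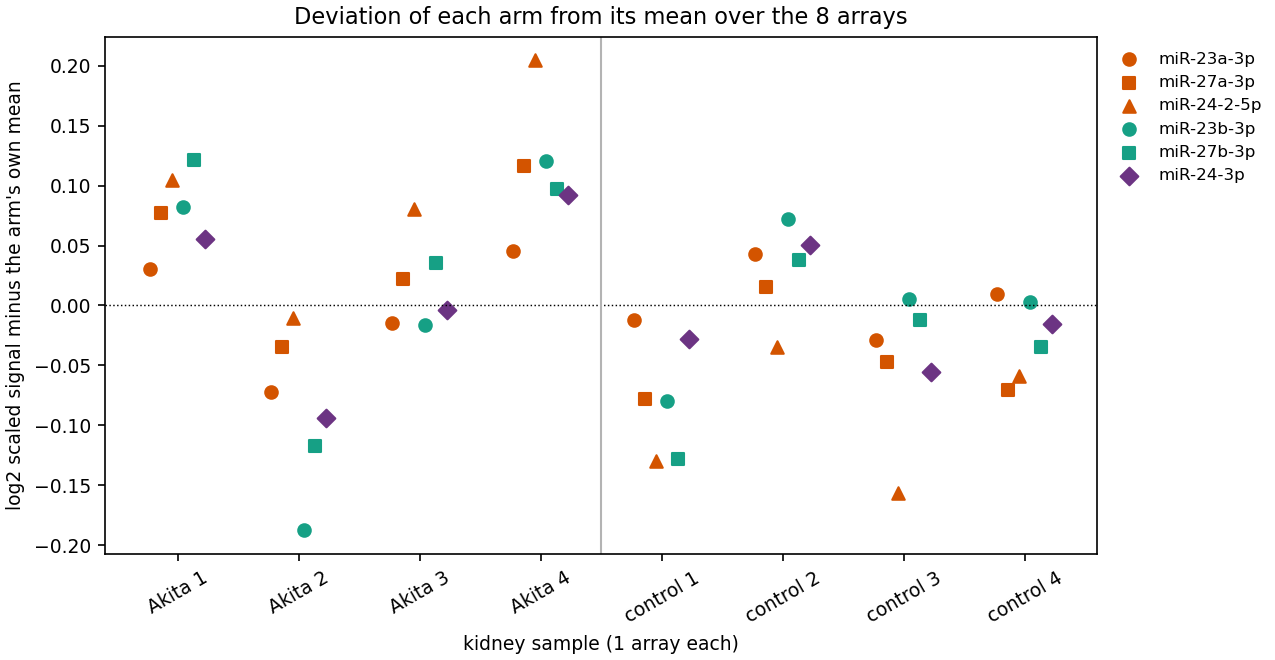
Log2 scaled signal of each measured arm minus its own mean over the 8 arrays (vertical axis), with the 4 Akita samples left and the 4 control samples right; orange marks the a cluster, green the b cluster and purple miR-24-3p. All 6 arms have their lowest Akita value in replicate 2, where miR-23b-3p is lowest, and miR-24-2-5p lies above 0 in 3 Akita samples and below 0 in all 4 control samples.

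How alike the arms were was measured as the root mean square difference of log2 signal from miR-24-3p over the 8 arrays, each miRNA centred on its own mean. MiR-23a-3p came to 0.025, rank 2 of 284 miRNAs, and miR-27a-3p to 0.039, rank 6. MiR-23b-3p and miR-27b-3p, at 0.047 and 0.049, held ranks 11 and 14. MiR-24-2-5p, at 0.085, held rank 66, and the median over the tested miRNAs was 0.14. The measure favours miRNAs that vary little. The non-members most like miR-24-3p were let-7i-5p at 0.022, miR-378a-3p at 0.030 and miR-362-3p at 0.034, with log2 fold changes of 0.012, 0.0066 and 0.047.

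To compare the a with the b cluster, the difference between 2 arms was taken on each array, which a scaling factor of the array cannot alter. It shows whether the 2 arms changed unequally between groups, and says nothing of which is more abundant. Of 9 planned pairs 3 had both arms above background on all arrays, and p-values were adjusted over these. The log2 difference miR-23a-3p minus miR-23b-3p was -0.15, 0.013, -0.10 and -0.18 in the Akita kidneys and -0.035, -0.13, -0.14 and -0.095 in the control kidneys. The ranges of the 2 groups overlapped. Akita replicates 1 and 4 lay below every control value and Akita replicate 2 above every control value. Between Akita and control, miR-23a-3p minus miR-23b-3p differed by -0.0052 ± 0.048 (SE, n = 4 each, exact two-sided permutation p = 0.91, adjusted p = 0.91), with a 95% interval from -0.12 to 0.11.

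MiR-27a-3p minus miR-27b-3p was 0.025, 0.15, 0.055 and 0.087 in the Akita kidneys and 0.12, 0.046, 0.034 and 0.033 in the control kidneys. The groups overlapped here as well, with Akita replicate 2 and control replicate 1 at the top of their groups. The difference between Akita and control was 0.022 ± 0.034 (SE, n = 4 each; exact two-sided permutation p = 0.57, adjusted p = 0.86), with a 95% interval from -0.062 to 0.11. For both seed families the interval thus leaves room for an unequal change of the probe signals of about 0.1 on the log2 scale. How far each probe also binds the paralog was not tested, so the intervals do not bound the change of the paralogs themselves.

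The third pair set the guide miR-24-3p, pooled from both miR-24 hairpins, against the passenger miR-24-2-5p. Its values did not overlap between the groups, as was so for 26.1% of the 32896 pairs of miRNAs above background on all arrays. MiR-24-3p minus miR-24-2-5p was 5.92, 5.88, 5.88 and 5.85 in the Akita kidneys and 6.07, 6.05, 6.07 and 6.01 in the control kidneys. All 4 Akita values lay below all 4 control values, with SDs of 0.026 in Akita and 0.027 in control. The mean was 0.16 lower in Akita (-0.16 ± 0.019 SE, n = 4 each), a fall of the ratio by 10.8%. An exact permutation test (two-sided) gave p = 0.029, and no split of 4 against 4 samples can give less; adjusted over the 3 pairs it was 0.086, the lowest that 1 such pair among 3 can reach. With the floor 4 times higher, which puts miR-24-2-5p at the floor in every sample, the difference was 0.025. MiR-24-3p pools both hairpins and miR-24-2-5p comes from one, so the ratio also holds the balance of the 2 loci.

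After these values were seen, all 15 pairs of the 6 measured arms were compared in the same way. In 6 of them the Akita and control values did not overlap, against 26.1% of the 32896 pairs of miRNAs above background on all arrays. Each arm is in several of the 15 pairs, so the pairs are not independent readings. The planned pair of miR-24-3p and miR-24-2-5p is counted again among the 6. Of the 15 pairs, 0 had an adjusted p under 0.05, and the 6 that did not overlap had the smallest exact p. MiR-24-2-5p was in 4 of these pairs, and miR-27a-3p was in the other 2, against miR-23a-3p and miR-24-3p.

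MiR-27a-3p and miR-23a-3p are cut from the same primary transcript. Their difference, miR-27a-3p minus miR-23a-3p, was -1.10, -1.11, -1.11 and -1.08 in the Akita kidneys and -1.22, -1.18, -1.17 and -1.23 in the control kidneys. The groups were apart, with SDs of 0.016 in Akita and 0.030 in control. The ratio was 6.88% higher in Akita (log2 difference 0.096 ± 0.017 SE, n = 4 each; exact two-sided permutation p = 0.029, adjusted over the 15 pairs p = 0.071).

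The b cluster gave a difference of the same sign on the same arrays. Cross-binding of the paralog probes was not tested, so the pairs of the a and b clusters may not be independent readings. MiR-27b-3p minus miR-23b-3p was -1.28, -1.25, -1.27 and -1.34 in the Akita kidneys and -1.37, -1.35, -1.34 and -1.36 in the control kidneys. Akita replicate 4 lay among the control values, and the other 3 Akita values were above all of them. The ratio was 4.89% higher in Akita (log2 difference 0.069 ± 0.021 SE, n = 4 each; exact two-sided permutation p = 0.057, adjusted p = 0.11). With 1 array left out, the difference ran from 0.085 to 0.11 in the a cluster and from 0.057 to 0.088 in the b cluster. Differences of this size were common: of all pairs, 18.1% differed by less than the b cluster's pair and 41.5% by less than miR-24-3p and miR-24-2-5p.

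**Figure D3:**
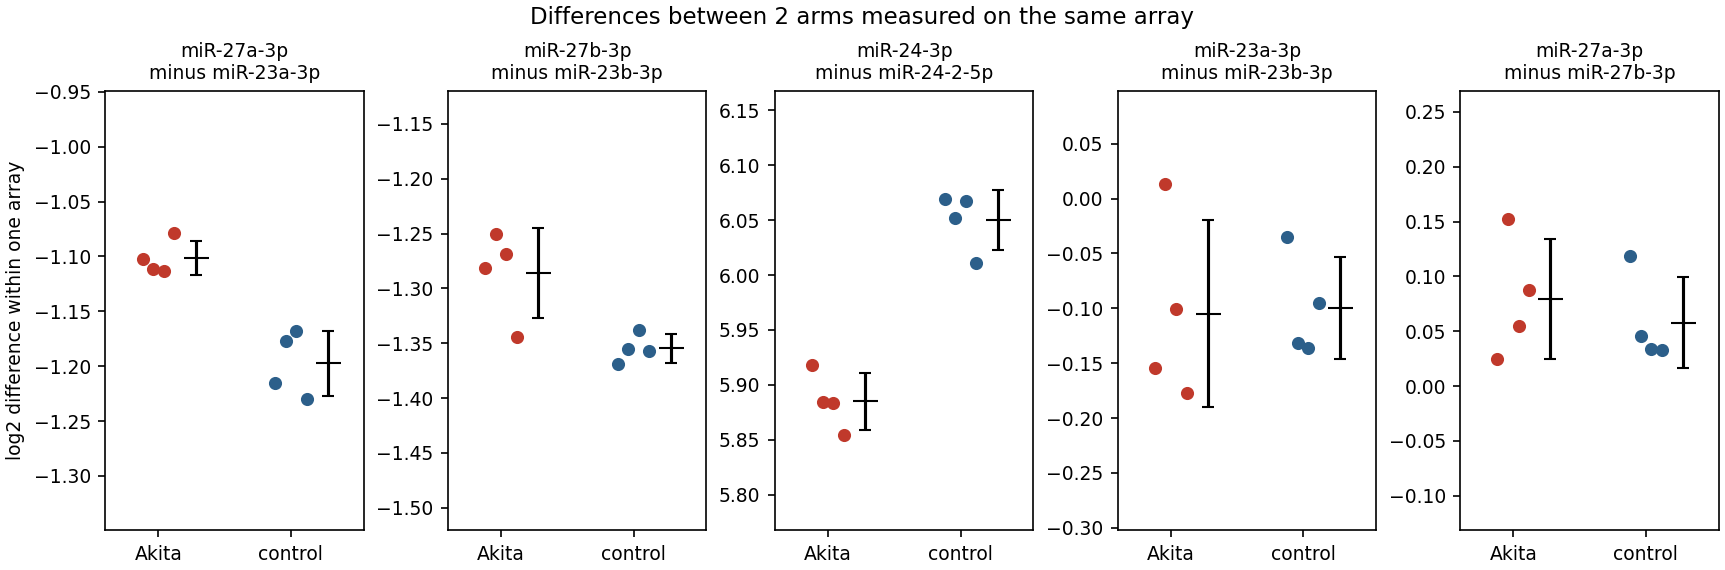
Log2 difference of 2 arms on the same array (vertical axis, each panel spanning the same range) in the 4 Akita (left, red) and 4 control (right, blue) samples, with mean and SD as bars. Akita and control do not overlap for miR-27a-3p minus miR-23a-3p and for miR-24-3p minus miR-24-2-5p, they overlap by 1 Akita sample for miR-27b-3p minus miR-23b-3p, and they overlap for the a against b pairs.

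The level of the clusters relative to control depended on how arrays were scaled. Before scaling, the 75th percentiles ran from 368.8 to 446.2 in Akita and from 495.4 to 520.0 in control. With no scaling, miR-23a-3p, miR-23b-3p and miR-24-3p were called lower in Akita (log2 fold changes -0.28, -0.27 and -0.25), where 36.5% of the tested miRNAs were called lower and their median was -0.21. When arrays were scaled to the labelling spike-ins, the same 3 arms were called lower (-0.25, -0.24 and -0.22), with 37.5% of the tested miRNAs called lower and a median of -0.18. Relative to the median miRNA of the same setting, these 3 guides thus lay within 0.1 of it. With normexp background correction miR-24-2-5p was called higher (0.20, adjusted p = 0.027), where 28.4% of the tested miRNAs were called higher and their median was 0.13.

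**Figure D4:**
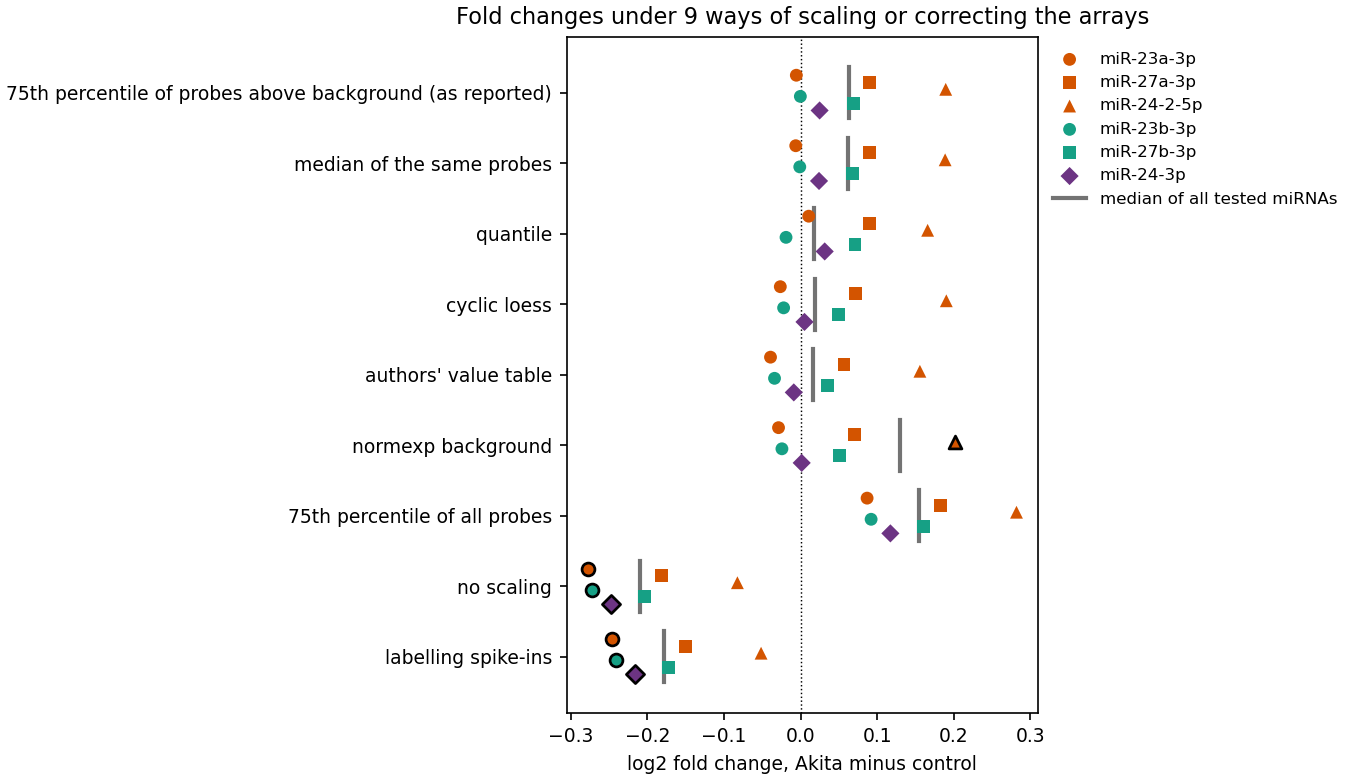
Log2 fold change, Akita minus control (horizontal axis), of the 6 measured arms under 9 ways of scaling or correcting the arrays, one per row; black outlines mark an adjusted p under 0.05 and grey bars the median of all tested miRNAs. In each row the miR-27 arms lie to the right of the miR-23 arms and miR-24-2-5p farthest right, while the whole set shifts left with no scaling and with the spike-ins.

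Related miRNAs listed with the clusters gave little signal. MiR-23a-5p, the passenger of miR-23a, and the antisense miR-3074-5p, miR-3074-1-3p and miR-3074-2-3p were above background on no array. MiR-128-3p, whose seed region overlaps that of miR-27 by a shift of 1 base, was above background on 0 Akita and 2 control arrays, and both miR-128 passengers on none, so none of the 7 was tested. Of 12 vascular and mesenchymal miRNAs, 10 were tested, 2 of them higher and 1 lower in Akita, with a median log2 fold change of 0.10; over all tested miRNAs 8.42% were called higher and 6.32% lower. The 2 higher were miR-221-3p (0.33) and miR-222-3p (0.28), which act in endothelium and vascular smooth muscle, and the lower was miR-218-5p (-0.63). The other 7 missed the threshold, with log2 fold changes from -0.026 for miR-145a-5p to 0.18 for miR-214-3p; the endothelial miR-126a-3p stood at 0.14, and miR-143-3p and miR-199a-3p at 0.0014 and 0.0035.

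Of 11 miRNAs of the tubular epithelium 10 were above background on all arrays, 2 of them higher in Akita, against 8.42% of all tested miRNAs. The summed signal of 6 leukocyte miRNAs, all tested and 5 of them lower (6.32% of all tested miRNAs were), ran from 732.3 to 871.6 in Akita and from 1069 to 1232 in control. That of 5 erythrocyte miRNAs ran from 629.6 to 844.6 in Akita and from 97.0 to 1305 in control, with miR-144-5p and both miR-486a arms above background on no array. The share of these blood cells in the levels of the miR-23, miR-24 and miR-27 arms was not tested.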

How the data were processed

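Kidney RNA of 4 Akita and 4 control samples was hybridised to one-colour (Cy3) arrays, and groups and replicate numbers were taken from the sample titles. The deposited scanner files hold spot intensity on a linear scale after a fitted spatial surface had been subtracted, with no scaling between arrays, from Agilent Feature Extraction 12.0.3.1, per the file headers. The deposited value table gives 1 linear ratio for each miRNA on each array, made by the authors with steps not given in the sources used here; it served as an alternative.

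From the intensities, control spots and outlier spots (2.03% to 3.02% of an array) were left out, the spots of each of 4415 probes averaged, and each array scaled to the 75th percentile of the 451 probes that were above background on every array (a probe counted as such if 0.5 or more of its spots did). No spot was saturated. Probes of a miRNA were summed, sums under 23.65 set to that floor, and log2 taken. Tested were the 285 miRNAs above background on all 4 arrays of a group, with limma 3.58.1 in R 4.3.3 (lmFit, eBayes, two-sided) and Benjamini-Hochberg adjustment; the procedure was tested on simulated data. Within-array differences of 2 arms were compared by exact permutation over the 8 samples, and their 95% intervals assume a normal spread pooled over groups. Sequences and loci came from RefSeq tables of GRCm38.p6; probe positions of the array annotation, in mm9, were not used. All 10 members are named, with the 3 miRNAs most like miR-24-3p and listed miRNAs. Members and lists were chosen with earlier results of these data known. The number of arrays limits the precision.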

Additional observations from a re-analysis of the deposited data

Results flagged for a closer look

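In 12 groups of 4 values (6 arms in Akita and control) no sample stood far from the others. Among 30 groups of within-array differences, 2 held a sample whose gap to its nearest neighbour, divided by the group's range, exceeded Dixon's 95% critical value for 4 samples, which chance gives in about 1 group of 20. MiR-27a-3p minus miR-24-3p was -0.92 in Akita replicate 2, against -0.96 in each of the other 3 Akita samples. MiR-27a-3p minus miR-27b-3p was 0.12 in control replicate 1, against 0.033 to 0.046 in the other 3 control samples.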

How the results depend on the processing

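Of 23 alternatives to the limma fit, 20 called none of the 6 measured arms; 3 arms were called with no scaling, 3 with the spike-ins and 1 with normexp. With no scaling and with the spike-ins the sign turned for miR-24-3p (-0.25 and -0.22), miR-24-2-5p (-0.082 and -0.052), miR-27a-3p (-0.18 and -0.15) and miR-27b-3p (-0.20 and -0.17). It turned with the percentile over all probes for miR-23a-3p (0.087) and miR-23b-3p (0.092), with quantile scaling for miR-23a-3p (0.011), with the brightest probe for miR-23b-3p (4.7e-05) and with the deposited value table for miR-24-3p (-0.0089). Without single arrays, 0 arms were called; log2 fold changes ran from -0.022 to 0.018 for miR-23a-3p, from -0.041 to 0.062 for miR-23b-3p, from -0.0016 to 0.060 for miR-24-3p, from 0.067 to 0.12 for miR-27a-3p, from 0.037 to 0.12 for miR-27b-3p and from 0.15 to 0.22 for miR-24-2-5p (adjusted p from 0.061 to 0.24). The differences between Akita and control of miR-23a-3p minus miR-23b-3p then ran from -0.045 to 0.019, those of miR-27a-3p minus miR-27b-3p from -0.0021 to 0.042 and those of miR-24-3p minus miR-24-2-5p from -0.18 to -0.15; 4 against 3 samples cannot give an exact p under 0.057. The difference of miR-24-3p minus miR-24-2-5p also moved with the probe and the background correction, to -0.12 with the brightest probe only and -0.20 with normexp. With the floor 4 times higher miR-24-3p minus miR-24-2-5p was 0.025, since miR-24-2-5p then stood at the floor. Over all tested miRNAs the calls numbered 42, and from 6 with no filter to 114 with the spike-ins. They fell to 20, 21 and 22 without Akita replicate 1, 4 or 3, and to 23 and 27 without control replicate 3 or 2. Whether the replicate numbers pair the samples was not tested. The correlations of deviations between same-numbered samples were 0.016, -0.36, 0.30 and -0.38. With the replicate number as a block, 0 arms and 25 of all miRNAs were called, and sign flips within the numbers cannot give a p under 0.125. In both groups the replicate number was also the slide column, so a block for replicate number is a block for column too. The 4 passengers were below background on all arrays and have only a bound.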

Other observations

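MiR-23a-3p varied less between samples of a group than any other tested miRNA: its pooled within-group SD was 0.043 on the log2 scale, rank 1 of 285, against a median of 0.13. MiR-27a-3p followed at 0.055, with 1.75% of the tested miRNAs below it, and miR-24-3p at 0.066, with 3.86% below it. The b cluster's guides varied more, miR-27b-3p at 0.090 and miR-23b-3p at 0.11, with 17.9% and 30.5% of the tested miRNAs below them. That gap depended on the scaling. With quantile scaling the SDs were 0.033 for miR-23a-3p, 0.026 for miR-27a-3p, 0.036 for miR-27b-3p and 0.042 for miR-23b-3p. Over 13 scalings and summaries the rank of miR-27b-3p ran from 15 to 155 and that of miR-23b-3p from 22 to 186. No test was made of these ranks. Over 13 scalings and summaries the rank of miR-23a-3p ran from 1 to 107; it was 1 with the deposited value table, 51 with no scaling, 61 with the percentile over all probes and 107 with the floor 4 times higher.

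The median log2 fold change of the tested miRNAs, taken by brightness, was 0.0013 among the 72 dimmest, which held miR-24-2-5p, 0.096 and 0.090 in the next groups of 71 each, and 0.0048 among the 71 brightest, which held the 5 guides, against 0.063 over all.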
